A study of Mus musculus with 4 samples.

Results

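Cmip, Itpk1 and Agap1 are 3 mouse signalling genes with long introns, and each carried one of the largest groups of eIF4A2 peaks in an eCLIP peak list from embryonic stem cells. The list held 47777 peaks, of which 342 (0.716%) lay in these genes. Members were the peaks whose midpoint fell in a fixed mm9 window on the strand of the gene. The windows were chromosome 8, plus strand, 119779000 to 119990000 for Cmip (115 peaks), chromosome 12, minus strand, 103805000 to 103945000 for Itpk1 (125 peaks), and chromosome 1, plus strand, 91350000 to 91797000 for Agap1 (102 peaks). The members were chosen by measured values: the genes were picked, and the windows drawn, with the number, positions and folds of their peaks known. Counts, positions and folds are therefore given as a description, and no test was made.

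The cells were J1 mouse embryonic stem cells (strain 129S4/SvJae), a single line. They were cultured on gelatin with serum and LIF, a cytokine that keeps these cells self-renewing, and were crosslinked with ultraviolet light. No library came from cells with another genotype or treatment. There were 2 libraries of RNA recovered with an antibody against eIF4A2 (IP) and 2 input libraries, and all 4 stand behind a single deposited list. It reports the enrichment of every peak as one log2 fold (IP over input), with no value for any single library. The error of a fold, the spread between replicates and the depth are therefore unknown, and intervals below (95%) cover counting error over peaks only. Neighbouring peaks of one transcript are not independent, so these intervals are too narrow.

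eCLIP marks the RNA positions that a protein touches in living cells. eIF4A2 is a DEAD-box helicase related to the translation initiation factor eIF4A1. Cmip (c-Maf inducing protein) is an adaptor protein with a pleckstrin homology domain, Itpk1 is a kinase that adds phosphates to soluble inositol phosphates, and Agap1 is a GTPase-activating protein for Arf proteins that acts in endosomal traffic. In genes of this kind most of the primary transcript is intron, which splicing removes and which the mature mRNA lacks.

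The annotation at hand was for GRCm38 (GENCODE M21), and the list is in mm9, so no peak was assigned to an exon or intron, and only lengths were taken from the annotation. In GRCm38, Cmip (ENSMUSG00000034390.16) is 202 kb long, Itpk1 (ENSMUSG00000057963.9) 136 kb and Agap1 (ENSMUSG00000055013.15) 443 kb, which is close to the 211, 140 and 447 kb of their windows. The longest coding transcript of Cmip has 21 exons, and its intron 1 of 120 kb is 59.1% of the gene. That of Agap1 has 18 exons and an intron 1 of 149 kb, or 33.6% of the gene. That of Itpk1 has 10 exons, and its introns 1 and 2, of 29.3 and 52 kb, together make up 59.6% of the gene. Exons of all annotated transcripts cover 6495 bases of Cmip, 3320 of Itpk1 and 17559 of Agap1. The peaks covered 4155 bases in the Cmip window, 5180 in the Itpk1 window and 3279 in the Agap1 window. In Itpk1 the peaks thus covered 1.56 times the annotated exon length, so they cannot all lie in those exons unless the exons differ between the builds.

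Peaks were denser at the 5′ side than over the rest of all 3 windows, although Itpk1 also had a dense group toward its 3′ side. For the comparison of the 5′ introns with the rest of each gene, each window was divided into a 5′ part, the first 33.3% of its length, and the rest, because intron borders in mm9 were not used here. By length alone, this part (70.3 kb in Cmip, 46.7 kb in Itpk1 and 149 kb in Agap1) is as long as intron 1 in Agap1. It is shorter than intron 1 of Cmip (120 kb) and than introns 1 and 2 of Itpk1 (81.3 kb), so in these genes the rest also takes in part of the 5′ introns. The 5′ part held 81 of 115 peaks (70.4%) in Cmip, 76 of 125 (60.8%) in Itpk1 and 94 of 102 (92.2%) in Agap1. In Cmip this gave 11.5 peaks per 10 kb in the 5′ part and 2.42 in the rest, a ratio of 4.76 (exact binomial interval 3.16 to 7.34). In Itpk1 it gave 16.3 and 5.25 peaks per 10 kb, a ratio of 3.1 (2.14 to 4.54). In Agap1 it gave 6.31 and 0.268 peaks per 10 kb, a ratio of 23.5 (11.4 to 56), which rests on only 8 peaks in the rest of the window. The windows were drawn with the peak positions known, so the ratios of the 3 genes were not tested against each other. With a 5′ part of 50% of the window, the ratio was 4.48 in Cmip and 2.91 in Itpk1. Among peaks of at least 4-fold alone, the ratio was 2.75 in Cmip, 9.71 in Itpk1 and 62 in Agap1. These ratios rest on few peaks in the rest of the window, 8 in Cmip, 7 in Itpk1 and 1 in Agap1.

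**Figure D1:**
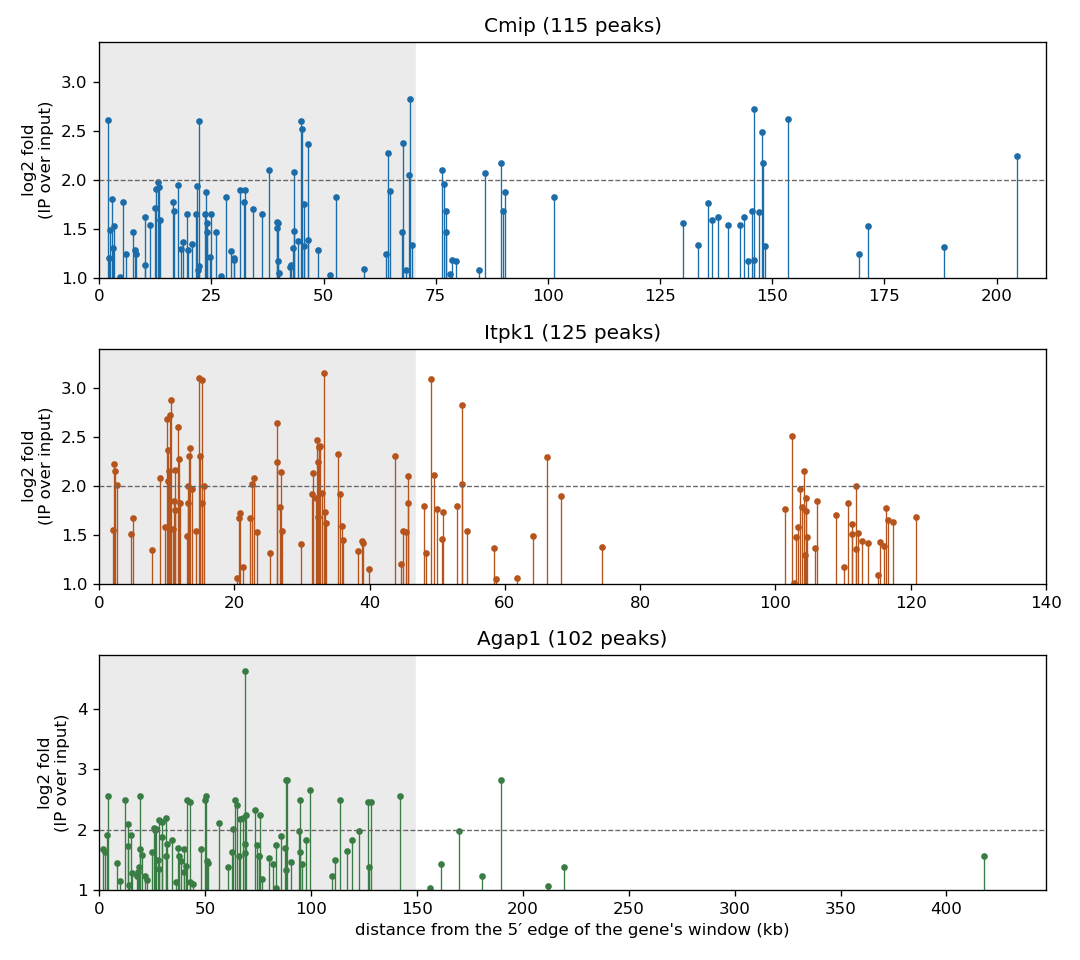
Each peak of Cmip, Itpk1 and Agap1 by its distance from the 5′ edge of the window (kb, x axis) and its log2 fold of IP over input (y axis, which starts at 1, the lower limit of the list). Grey marks the 5′ part (first 33.3%) of each window and the dashed line a log2 fold of 2. Peaks are crowded in the grey part. Beyond it, a second group stands apart in Cmip and Itpk1, whereas Agap1 has only 8 scattered peaks.

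The fall in peak number was not even along the windows. With each window cut into 10 equal bins from the 5′ end, the numbers in Cmip were 28, 28, 16, 16, 6, 0, 13, 4, 3 and 1. Cmip thus had a dense 5′ group, an empty bin and a second, smaller group. In Itpk1 the numbers were 28, 20, 22, 17, 6, 1, 0, 21, 10 and 0, so a second group of peaks followed 2 bins with 1 and 0 peaks. In Agap1 they were 44, 33, 16, 4, 4, 0, 0, 0, 0 and 1, a fall with no second group. By 42.8 kb from the 5′ edge in Cmip, 35.3 kb in Itpk1 and 61.8 kb in Agap1, 50% of the gene's peaks had been passed.

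**Figure D2:**
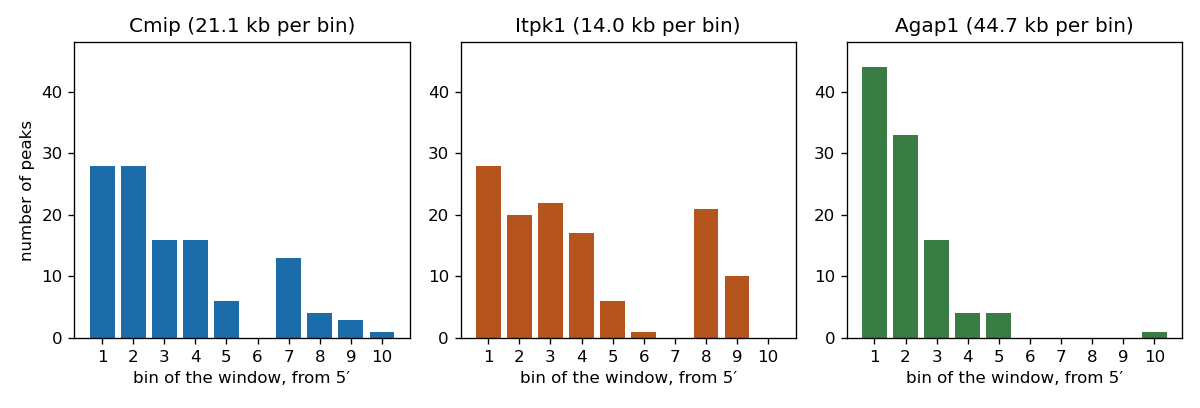
Number of peaks (y axis) in each of 10 equal bins of the window, counted from the 5′ end (x axis), for the 3 genes. The first bin held 28 peaks in Cmip, 28 in Itpk1 and 44 in Agap1, and a second rise is seen at bin 7 in Cmip and bin 8 in Itpk1.

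Stretches without a peak separated these groups. In Itpk1 no peak was listed for 27.1 kb, between 74.4 and 101 kb from the 5′ edge, and the next longest gap was 5.99 kb. The longest gap in Cmip was 28.7 kb, from 101 to 130 kb. Agap1 had a gap of 198 kb, from 220 to 418 kb, in a window of 447 kb, and a single last peak followed it. The list holds only peaks above 2-fold, so a gap says that no such peak was called and not that eIF4A2 was absent there.

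Distances between neighbouring peaks were taken over each whole window, with the gaps between the groups included. The median distance from one peak to the next was 675 bases in Cmip, 283 in Itpk1 and 1041 in Agap1, against 3992 over the whole list. The list values pair all neighbouring peaks of a chromosome and strand, also across genes. The windows were drawn around known peaks, so the comparison with the list is not like for like. Distances of 1000 bases or less made up 66.7% in Cmip, 79.8% in Itpk1 and 48.5% in Agap1, against 33.9% in the list. Itpk1 was therefore the most tightly packed of the 3 genes, and over the whole window it had 8.93 peaks per 10 kb (exact Poisson interval 7.43 to 10.6). Cmip had 5.45 (4.5 to 6.54) and Agap1 2.28 (1.86 to 2.77), whose window takes in a gap of 198 kb. The windows were drawn with the peaks known, so these densities describe the windows and were not tested against each other.

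At a joining distance of 10000 bases the 5′ groups were among the largest in the list, in genes picked with their peak number known. Peaks of one strand were joined into a chain where the next peak began no further than a set distance from the chain's end, and a distance of 10000 bases gave 17797 chains in the list. By number of peaks, the first chain of Itpk1 ranked 2, that of Cmip 3 and that of Agap1 4. The Itpk1 chain covered 103870647 to 103942967 with 94 peaks in 72.3 kb. The Cmip chain covered 119781017 to 119869451 with 93 peaks in 88.4 kb. The Agap1 chain covered 91351950 to 91449687 with 84 peaks in 97.7 kb. The chain that ranked first, at 123012062 to 123116331 on chromosome 8 (plus strand), held 175 peaks in 104 kb. The median log2 fold in this chain was 2.2 (quartiles 1.63 and 2.7), and 62.3% of its peaks reached 4-fold.

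At a joining distance of 1000 bases the 3 genes ranked lower by number of peaks. The largest such chain of Itpk1, at 103933036 to 103936078, held 15 peaks in 3.04 kb, with log2 folds from 1.56 to 2.87 and a median of 2.15. That of Cmip, at 119821472 to 119825646, held 12 peaks in 4.17 kb, with log2 folds from 1.11 to 2.6 and a median of 1.43. That of Agap1, at 91367818 to 91370420, held 6 peaks in 2.6 kb, with log2 folds from 1.24 to 2.56 and a median of 1.48. Their ranks were 35, 72 and 441 of the 31595 chains at this distance. At this distance Cmip was split into 39 chains, Itpk1 into 26 and Agap1 into 53, and 21, 9 and 31 of these were single peaks.

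Most peaks of the 3 genes were moderately enriched. In Cmip the log2 fold ranged from 1.01 to 2.82, with a median of 1.56 (interquartile range 1.28 to 1.87). In Itpk1 it ranged from 1.01 to 3.15, with a median of 1.77 (1.51 to 2.14). In Agap1 it ranged from 1.03 to 4.63, with a median of 1.68 (1.43 to 2.16). The median of the whole list was 1.65 (1.29 to 2.07), which lay between those of Cmip and Agap1, and the interquartile ranges of all 3 genes overlapped it. A log2 fold of 2 (4-fold) or more was reached by 19 peaks of Cmip (16.5%), 41 of Itpk1 (32.8%) and 32 of Agap1 (31.4%), against 28.3% of the list. A log2 fold of 3 (8-fold) or more was reached by 0 peaks of Cmip, 4 of Itpk1 (3.2%) and 1 of Agap1 (0.98%), against 4.03% of the list. The exact binomial intervals of the 4-fold share were 10.3 to 24.6% in Cmip, 24.7 to 41.8% in Itpk1 and 22.5 to 41.3% in Agap1, and only those of Itpk1 and Cmip did not overlap.

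In Itpk1, the inositol phosphate kinase, folds as well as peak number were higher on the 5′ side. The 76 peaks of the 5′ part had a median of 1.92 on the log2 scale (interquartile range 1.56 to 2.25), and the 49 peaks of the rest had a median of 1.63 (1.42 to 1.82). The difference of the medians was 0.29 (interval 0.06 to 0.51, combined from the exact binomial interval of each median). This interval counts neighbouring peaks as independent and is too narrow, and the difference was not tested. The ranges of both parts overlapped, from 1.06 to 3.15 and from 1.01 to 3.09. A fold of at least 4 was reached by 34 peaks of the 5′ part (44.7%, exact binomial interval 33.3 to 56.6%) and 7 of the rest (14.3%, 5.94 to 27.2%). Along the 10 bins of the window the median log2 fold was 2.03 in the first and 1.48 in the last that held a peak. The Spearman correlation of position with fold across the 125 peaks was -0.37, given as a description, since all peaks come from the same libraries.

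The second group of Itpk1, from 101 to 121 kb, held 31 peaks at 16.1 per 10 kb, against 13 per 10 kb in the first group. Its median log2 fold was 1.61 against 1.83 in the first group. A fold of at least 4 was reached by 2 of its 31 peaks (6.45%) and by 39 of the 94 peaks of the first (41.5%).

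In Cmip, the adaptor protein gene, folds were not higher on the 5′ side. The 81 peaks of the 5′ part had a median log2 fold of 1.54 (1.28 to 1.82), and the 34 of the rest had 1.62 (1.33 to 1.93), a difference of -0.08 (interval -0.34 to 0.12). A fold of at least 4 was reached by 11 peaks of the 5′ part (13.6%, 6.98 to 23%) and 8 of the rest (23.5%, 10.7 to 41.2%). The difference of the shares was -9.95 percentage points (interval -28.8 to 5.93), which reaches both signs, and it was not tested. The second group of Cmip, from 130 to 154 kb, had 17 peaks, 4 of them at 4-fold or more, and its median log2 fold was 1.62. Cmip peaks further 3′ were few, with 2 at 169 to 171 kb, 1 at 188 kb and 1 at 204 kb.

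In Agap1, the Arf regulator, the 94 peaks of the 5′ part had a median log2 fold of 1.7 (1.45 to 2.18). The 8 peaks of the rest had log2 folds, from 5′ to 3′, of 1.03, 1.43, 1.98, 1.24, 2.82, 1.06, 1.38 and 1.56, with a median of 1.4. All 8 lay within the range of the 5′ part, 1.03 to 4.63. The difference of the medians was 0.29, with an interval of -1.13 to 0.71 that reaches both signs, and it was -0.06 when the 5′ part was the first 25% of the window instead. A fold of at least 4 was reached by 31 peaks of the 5′ part (33%) and 1 of the rest (12.5%, exact binomial interval 0.316 to 52.7%). The direction of the difference in median fold along Agap1 thus depended on the cut, and the difference was not tested.

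**Figure D3:**
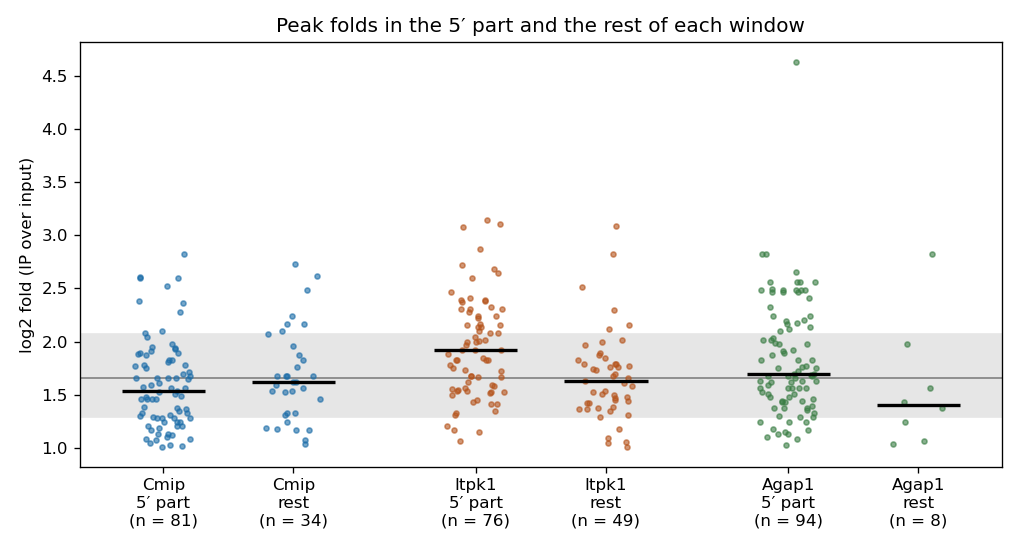
Log2 fold of IP over input (y axis) of each peak in the 5′ part and in the rest of each window; points are peaks, spread sideways only for visibility, and black bars are medians. The grey band and line are the interquartile range (1.29 to 2.07) and median (1.65) of the whole list; the medians of both parts differ most in Itpk1 and Agap1, the latter over 8 peaks.

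The strongest single peaks lay in different places in the 3 genes. In Agap1 a peak of 17 bases at 91418761 to 91418777, 68.8 kb from the 5′ edge, had a log2 fold of 4.63 (24.8-fold). The next value in Agap1 was 2.82 (7.08-fold), given for the peaks at 91438000 to 91438009 and 91438554 to 91438583 and for one at 91539557 to 91539579. The Agap1 peak of 4.63 thus stood alone in fold, and it was the only one of its gene above 8-fold. The next peak downstream, at 91418823 to 91418847, had a log2 fold of 1.76. In Itpk1 the 3 highest log2 folds were 3.15 at 103911777 to 103911826, 3.1 at 103930162 to 103930214 and 3.09 at 103895877 to 103895910. These Itpk1 peaks lay at 33.2, 14.8 and 49.1 kb from the 5′ edge, so 2 of them were in the 5′ part and 1 just beyond it. In Cmip the highest log2 folds were 2.82 at 119848176 to 119848178, a peak of 3 bases, 2.73 at 119924936 to 119924983 and 2.62 at 119932565 to 119932609. The second and the third of these Cmip peaks, at 146 and 154 kb, belonged to the second group and not to the dense 5′ group.

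Peak widths were close to those of the list. The median width was 35 bases in Cmip, 39 in Itpk1 and 31 in Agap1, against 32 in the list. The widest peaks covered 107 bases in Cmip (119789138 to 119789244, log2 fold 1.61), 111 in Itpk1 (103832817 to 103832927, 1.52) and 72 in Agap1 (91379669 to 91379740, 2.13). The widest peak of each gene was thus not its most enriched one. Across all peaks of a gene, the Spearman correlation of width with log2 fold was -0.009 in Cmip, 0.25 in Itpk1 and -0.04 in Agap1. Between the 5′ part and the rest the median width was 35 and 35 bases in Cmip, 41 and 37 in Itpk1, and 31.5 and 23.5 in Agap1.

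All peaks in the 3 windows lay on the strand of the gene, with 0 on the opposite strand in each window. In GRCm38 the antisense gene Gm20069 lies within Itpk1 and 4933400F21Rik lies opposite Agap1. On the same strand as Itpk1, the non-coding gene Gm28373 overlaps 31.9 kb of the gene, and peaks of the overlapping transcripts cannot be told apart there. Within Agap1 the largest gene on the same strand is Gm28499, of 7.84 kb. Cmip holds only the short miRNA genes Mir7077 and Mir7078.

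The windows began shortly before the first peak of each gene. The 5′-most peak of Cmip, at 119781017 to 119781029, had a log2 fold of 2.61, and the nearest peak outside that edge lay 78.9 kb away with 1.62. The 5′-most peak of Itpk1, at 103942926 to 103942967, had 1.55, and the nearest outside lay 36.8 kb away with 1.5. The 5′-most peak of Agap1, at 91351950 to 91351988, had 1.68, and the nearest outside lay 308 kb away with 1.7. At the 3′ edge the last peaks inside had log2 folds of 2.24 in Cmip, 1.68 in Itpk1 and 1.56 in Agap1. The nearest peaks beyond that edge lay 42.8, 143 and 30.1 kb away, with 1.65, 1.3 and 2.56. No peak therefore lay within 30 kb of a window on its strand.

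Whether the 5′ crowding differs from that of other long groups depended on the unit that was compared. Among the other 141 chains of 20 or more peaks joined at 10000 bases, 60.3% were denser in the first 33.3% of their own span (again called the 5′ part) than in the rest, and the median share of peaks in the 5′ part was 38.1% (interquartile range 25 to 51%). The share in the first chain was 49.5% in Cmip, 45.7% in Itpk1 and 38.1% in Agap1, all within that interquartile range. Counted inside their dense groups, the 3 genes thus lay in the middle 50% of chains. Joined at 50000 bases, 55.8% of the other 416 chains were denser in the 5′ part, with a median share of 36.5% (23.7 to 52.2%). The share was then 75.8% in the chain that holds Cmip, as high in 19 of the 416 others, and 63.4% in that of Agap1, as high in 48. The chain that holds Itpk1 took in 4 peaks upstream of the window and its share fell to 7.75%, as high in 396 of the others. That of Cmip took in 9 peaks outside the window, so a chain at this distance is not a gene.

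**Figure D4:**
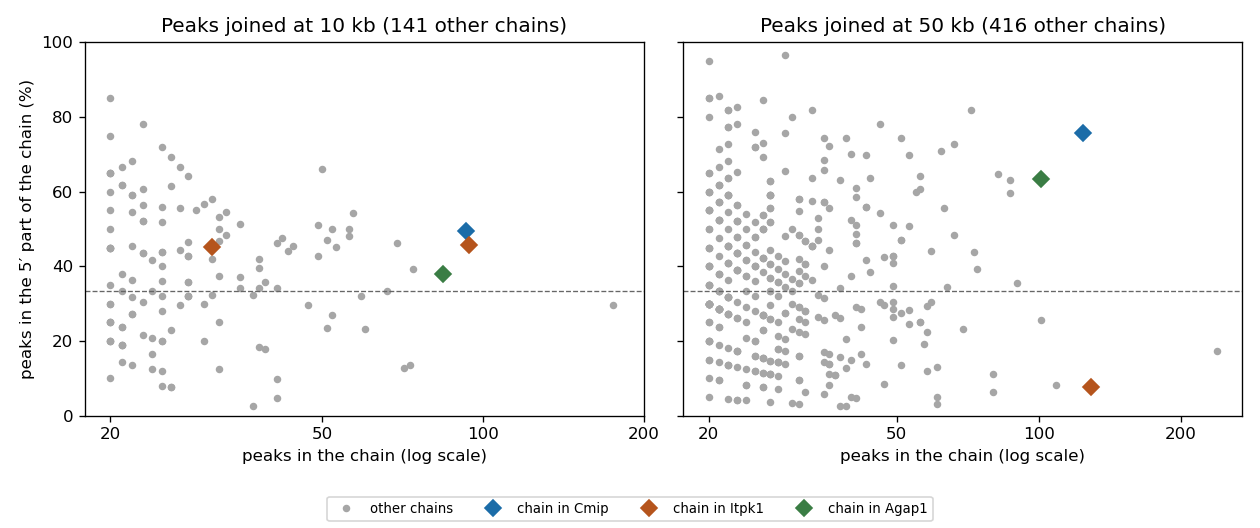
Share of peaks in the 5′ part of a chain (%, y axis) against the number of its peaks (log scale, x axis), for all chains of 20 or more peaks joined at 10 kb (left) or 50 kb (right); diamonds are the chains in Cmip, Itpk1 (a pair at 10 kb) and Agap1, and the dashed line is an even spread. At 10 kb the diamonds lie between 38.1 and 49.5%, and at 50 kb they lie at 75.8, 63.4 and 7.75%.

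The difference in fold between the ends was compared with the same chains. At 10000 bases the median log2 fold was higher in the 5′ part in 53.2% of the other 141 chains, with a median difference of 0.03 (interquartile range -0.17 to 0.27). It was 0.2 in the first chain of Itpk1 and 0.23 in the second, -0.04 in Cmip and -0.02 in Agap1. A difference at least as high as that of the first Itpk1 chain was found in 42 of the others (29.8%). At 50000 bases, where 58.7% of the other chains were higher in the 5′ part, the difference was 0.03 for Itpk1, -0.07 for Cmip and 0.04 for Agap1.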

How the data were processed

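eCLIP was done on 2 IP and 2 input libraries of J1 mouse embryonic stem cells, per the labels' protocols. The build was mm9, with STAR 2.6.1b and cutadapt 1.18 named as tools, per the submitters' processing notes. For the peak caller, its filters and the handling of replicates, the method is not given in the sources used here. What the authors deposited is 1 list that holds per peak a log2 fold (IP over input), read as log2 from the values and the 2-fold limit in the list's name. It holds neither counts nor p-values, and nothing for single libraries, so depth and replicate error are unknown.

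Starts were changed to count from 1. The members and lists were chosen with earlier results of these data known. Named peaks in each gene were the 3 highest folds, the widest, both end peaks, the largest chains, the longest gap and the nearest peaks outside. The third Agap1 peak at the tied fold, the second longest gap, the groups within each gene and the comparison with other chains were added after values were seen. Intervals are exact binomial or Poisson (95%), and intervals of differences combine the limits of both parts. Alternatives were a minimum fold or width, merging within 50 bases, other cuts of the window and the opposite strand. The code that compares both parts was checked on simulated peaks. Other genes of these pathways were not analysed here, since peaks were not placed on the GRCm38 annotation (GENCODE M21), and for the same reason markers of the cell type were not checked. Python 3.11.15, numpy 2.4.6, scipy 1.17.1 and pandas 2.3.3 were used.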

Additional observations from a re-analysis of the deposited data

How the results depend on the processing

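Of 63 alternative values, 51 stayed within the interval of the value they were compared with, or within 1.5 times for a count, and did not reverse direction. Among them, the difference in 8-fold share in Cmip was 0 because no Cmip peak reached 8-fold. The Agap1 intervals were wide (-1.13 to 0.71 for the fold difference, -20.7 to 36.5 percentage points for the 4-fold share), so staying within them says little. Keeping only peaks of at least 4-fold left 19 peaks in Cmip, 41 in Itpk1 and 32 in Agap1, and changed the 5′ density ratio to 2.75, 9.71 and 62. The rest of the window then held 8, 7 and 1 peaks. The opposite strand held 0 peaks in each window. A 5′ part of 50% of the window gave a density ratio of 101 in Agap1, with 1 peak in the rest. A 5′ part of 25% turned the difference in median log2 fold in Agap1 from 0.29 to -0.057. With a limit of 8-fold in place of 4-fold, the difference in share between the 5′ part and the rest of Itpk1 was 1.91 percentage points instead of 30.5. Fewer peaks pass that limit, 4 in all. For the density ratio and the fold difference, a minimum width of 20 bases, merging within 50 bases and cutting the span from first to last peak kept the direction in all 3 genes. No paired analysis was possible because the list pools the libraries, which also means that replicates could not be left out in turn. What depth limits is unknown.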

Other observations

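The deposited folds took the form of ratios of whole numbers, in the 3 genes as in the rest of the list. After a constant of 0.24 was subtracted on the log2 scale, set so that the commonest fold of the list is 2 to 1, each of the 342 folds could be written as one whole number over another, with denominators no larger than 200 (relative tolerance 1e-06), and so could 99.96% of the list. A denominator of 10 or less was enough for 71 peaks of Cmip (61.7%), 57 of Itpk1 (45.6%) and 83 of Agap1 (81.4%), against 75.6% of the list. A ratio of a whole number to 1 was found at 9 peaks of Cmip (7.83%), 8 of Itpk1 (6.4%) and 17 of Agap1 (16.7%), against 27.8% of the list. The strongest Agap1 peak stood at 21 to 1 and the strongest Cmip peak at 6 to 1, whereas that of Itpk1 stood at 15 to 2. A reduced ratio does not give the read counts behind a peak.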
